A study of Caenorhabditis elegans with 4 samples.

Results

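CES-1 binding regions on chromosome V of Caenorhabditis elegans are described here. They are the 408 rows on chromosome V of the authors' combined list of 2713 regions, selected by their chromosome, a rule that uses no measured value. Chromatin immunoprecipitation followed by sequencing (ChIP-seq) had been carried out on hermaphrodites at the L3 larval stage, grown at 20 °C. All worms were of strain OP174, which carries the unc-119(ed3) mutation and the integrated transgene wgIs174, made up of ces-1 with TY1, EGFP and FLAG tags and an unc-119 copy. The 4 libraries were 2 ChIP libraries made with a goat antibody against GFP (replicates 1 and 2) and 2 libraries of input DNA from the same strain, so every group carries the mutation and the transgene. The strain was made by bombardment, it holds tagged CES-1 beside any product of the native gene, and no ChIP of worms without the tag was analysed here. The labels do not state whether separate cultures were used for the replicates, and agreement between them may be technical.

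CES-1 is a zinc-finger transcription factor of the Snail family, whose members mostly repress their targets by binding E-box sequences. In the worm it is known from the NSM lineage of the pharynx, where gain of its function keeps alive sister cells that normally die. Its best-known targets there are egl-1, a pro-apoptotic gene that starts programmed cell death, and cdc-25.2, which encodes a phosphatase that drives the cell cycle. By the names of the RefSeq gene table for the WBcel235 assembly, both egl-1 and cdc-25.2 lie on chromosome V, while ces-1 itself lies on chromosome I. The deposited regions are in coordinates of an earlier build, WormBase WS220, so no region was tied to these or other genes. No exon, intron or sequence is given for the regions either, since a genome of that build was not used here.

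Per the deposited sample table, the ChIP libraries held 873921 and 1320404 uniquely mapped reads (replicates 1 and 2) and the input libraries 1535649 and 907103. These were 11.8% and 11.7% of all reads of the ChIP libraries, against 66.8% and 73.1% in the input libraries. Each region carries a q-value from the authors' peak caller, written here as a score, −log10(q), that serves to describe and rank regions only. All q-values were below 0.01, which is a score of 2. Calling had been done on the pooled ChIP reads for the combined list and on each ChIP replicate for 1 list apiece, all 3 against 1 merged input. On V these replicate lists held 94 and 192 regions (replicates 1 and 2).

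Strong and weak refer below to score alone, and the height of the ChIP signal was not measured. The 2 highest-scoring CES-1 regions of the chromosome, and of the series, lay in a stretch of 7558 bp. Its main region, V:9768660-9770149, was 1490 bp wide and had a score of 194 in the combined list, 87.1 in replicate 1 and 116 in replicate 2. The highest score on chromosomes II, III, IV and X was 43.3. The neighbouring combined region, V:9764902-9768416, was the widest on V at 3515 bp and scored 79.7. It was the only combined region on V that either replicate list split into separate pieces, and both lists split it in the same way. Replicate 1 called V:9765059-9766206 with a score of 20.9 and V:9767865-9768316 with a score of 10.7, leaving 1658 bp between them. Replicate 2 called V:9764905-9766370 with 36.7 and V:9767605-9768421 with 15.7, leaving 1234 bp between them. The gap of 243 bp between the 2 combined regions was the shortest between any neighbouring regions on V.

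The right edge of the stretch was a further region, V:9771859-9772459, 1709 bp beyond the main one. Its score was 12.4 in the combined list, 5.04 in replicate 1 and 7.08 in replicate 2. Each replicate thus showed 4 separate pieces in the stretch, and in both the third from the left was the strongest and the rightmost the weakest. A region of 1438 bp at V:9730770-9732207 lay 32694 bp to the left of the stretch. It scored 14.02 in the combined list, 5.34 in replicate 1 and 5.25 in replicate 2.

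**Figure D1:**
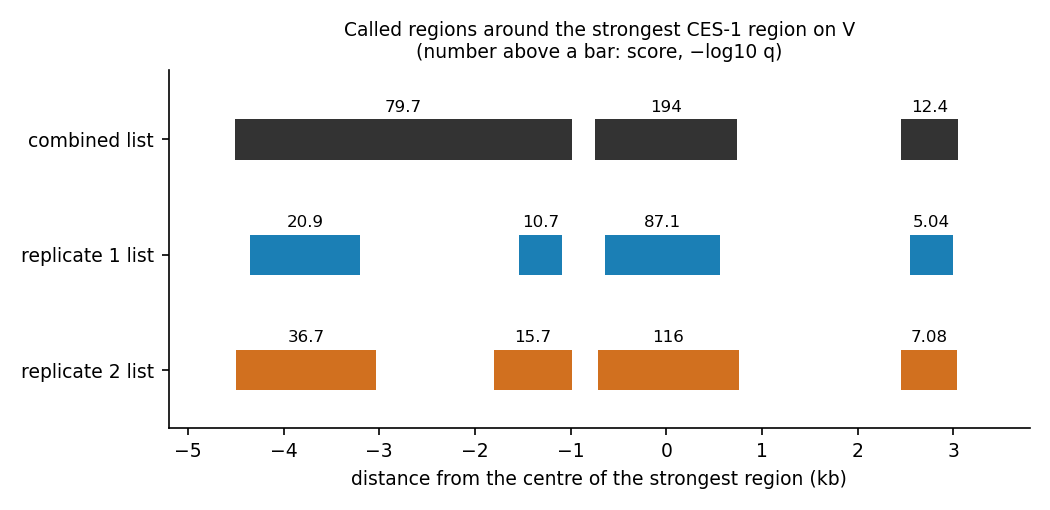
Called regions in the strongest stretch of chromosome V, by list. The x axis is the distance in kb from the centre of the strongest region, each bar is 1 called region drawn to scale, and the number above it is its score. Both replicate lists hold 4 pieces, and the combined list joins the left 2 into a region of 3515 bp.

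Below this stretch the scores on V fell steeply. The third-ranked region, V:6267385-6267821, had a combined score of 28.3, with 11.9 in replicate 1 and 15.5 in replicate 2. The fourth, V:1150268-1150689, had 16.001, with 6.08 and 8.19. The remaining regions among the 10 highest scored from 12.4 to 14.5, so that after the first 3 regions neighbours in the order differed little. These were V:14140767-14141134 with 14.5, V:12025321-12026128 with 14.2, V:1151283-1151968 with 14.1 and V:20778065-20778940 with 12.98, beside the 2 regions named above with 14.02 and 12.4. Each of the 10 highest was called in both replicates, against 16.3% of all combined regions. Above a score of 10, both replicates called 21 of 22 regions on V and 99 of 100 on II, III, IV and X. In 8 of the 10 the score was higher in replicate 2, as it was in 48 of the 73 pairs of overlapping replicate regions on V. That replicate had more uniquely mapped reads, but whether this bears on the scores was not tested. The positions of the 10 regions ran from near the left end of V to near its right end.

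**Figure D2:**
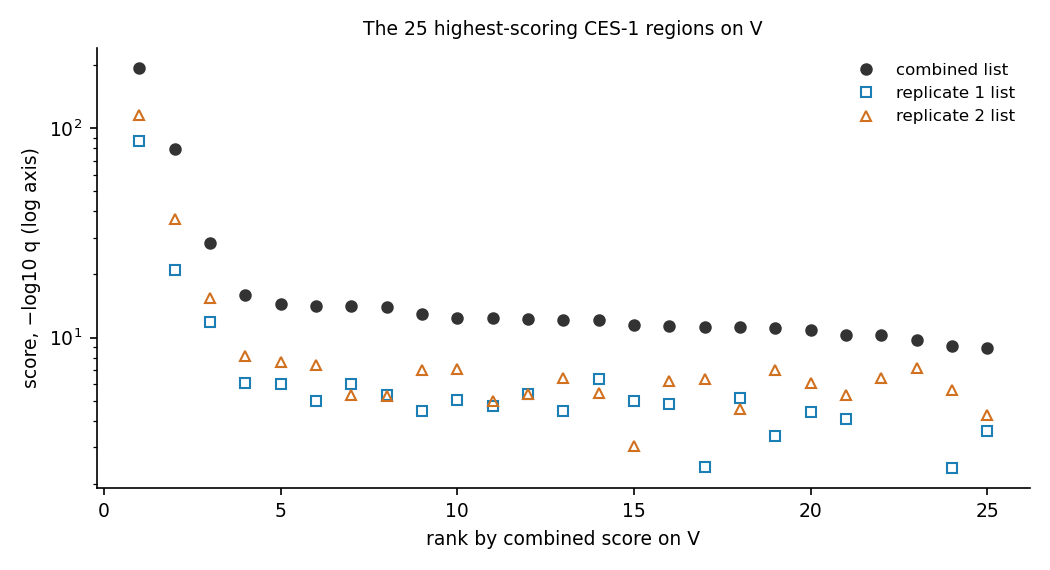
Scores of the 25 highest-scoring combined regions on V in the combined list and in each replicate list, against their rank on V. The y axis is −log10(q) on a log scale, and a missing symbol means that the replicate list held no region there. The first 3 regions stand above the rest in every list.

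Of the 408 regions, 22 scored above 10 (5.39%, 95% Wilson interval 3.59 to 8.03), against a background of 5.16% of all combined regions. The share on II, III, IV and X together was 5.25%, and the difference of 0.143 percentage points had an interval of −1.97 to 2.93. The median score was 3.07 on V (quartiles 2.40 and 4.25) and 3.11 on the other 4 chromosomes. The median width was 221 bp on V (quartiles 149 and 323) and 218 bp on the others. The medians on V and elsewhere thus lay close, although the strongest stretch stood far above the rest. All intervals here cover counting error only and take regions as independent, although neighbouring regions share chromatin and reads.

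Very narrow regions were less frequent on V than on II and III, whereas for IV and X the interval of the difference included 0. Regions under 50 bp made up 24 of the 408 on V (5.88%, 3.98 to 8.60), against 9.33% of all combined regions. On II, III, IV and X together they made up 10.3%, a difference of −4.46 percentage points (−6.85 to −1.45). Against single chromosomes the difference was −5.18 points from II (−8.92 to −1.44), −7.49 from III (−11.4 to −3.58), −3.03 from IV (−6.73 to 0.603) and −2.55 from X (−5.698 to 0.814), unadjusted for the number of comparisons. Of the 24, the narrowest was 3 bp wide, the highest score was 3.37, and 2 were called in a replicate (8.33%). On II, III, IV and X together, a replicate called 24 of 197 such regions (12.2%).

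About as many regions on V were called in a replicate list as were found in the combined list alone. Of the 408 regions, 72 were called in both replicates (17.6%, 14.3 to 21.6), against 16.3% of all combined regions. A further 116 were called in replicate 2 alone (28.4%) and 21 in replicate 1 alone (5.15%), while 199 were called in neither (48.8%, 43.96 to 53.6), against 52.3% of all. Replicate 1 called 93 of the V regions (22.8%), against 21.4% of all, and replicate 2 called 188 (46.1%), against 42.6% of all. At least 1 replicate called 209 of the V regions (51.2%, 46.4 to 56.04), against 47.7% of all. Where both replicates called a region, the median score was 7.43 and the width 367.5 bp. Where neither did, these medians were 2.53 and 173 bp. The combined list rests on the same reads, so support by the replicates is partly built in, and in each of the 72 regions called in both the combined score exceeded both replicate scores.

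Recovery in the replicates rose with the combined score. Above a score of 10, replicate 2 called 22 of 22 regions on V and replicate 1 called 21. Between 4 and 6, replicate 2 called 57 of 67 (85.1%, 74.7 to 91.7) and replicate 1 called 23 (34.3%, 24.1 to 46.3). Between 2 and 2.5, they called 8 and 3 of 110. Within the same bands of score, regions on II, III, IV and X were recovered at rates whose intervals overlapped those on V in every band of both replicates. Over the bands, the odds that a region was called, V relative to those chromosomes (Mantel-Haenszel), were 0.92 in replicate 1 (95% interval 0.65 to 1.31) and 1.096 in replicate 2 (0.82 to 1.46). Both intervals include 1. Without regard to score, the share called in replicate 2 differed by 0.462 percentage points from that on II, III, IV and X together (−4.82 to 5.80). For at least 1 replicate this difference was −0.481 points (−5.81 to 4.83). Against single chromosomes, the share called in replicate 2 was 7.14 points higher on V than on II (0.529 to 13.7) and differed by −7.39 points from that on IV (−14.2 to −0.511). The share called in at least 1 replicate differed by −7.69 points from that on IV (−14.4 to −0.844) and by 6.54 points from that on II (−0.147 to 13.1). For III and X, and for every chromosome in replicate 1, the intervals of these differences included 0. These single-chromosome intervals are not adjusted for the number of comparisons, and they go in opposite directions for II and IV.

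**Figure D3:**
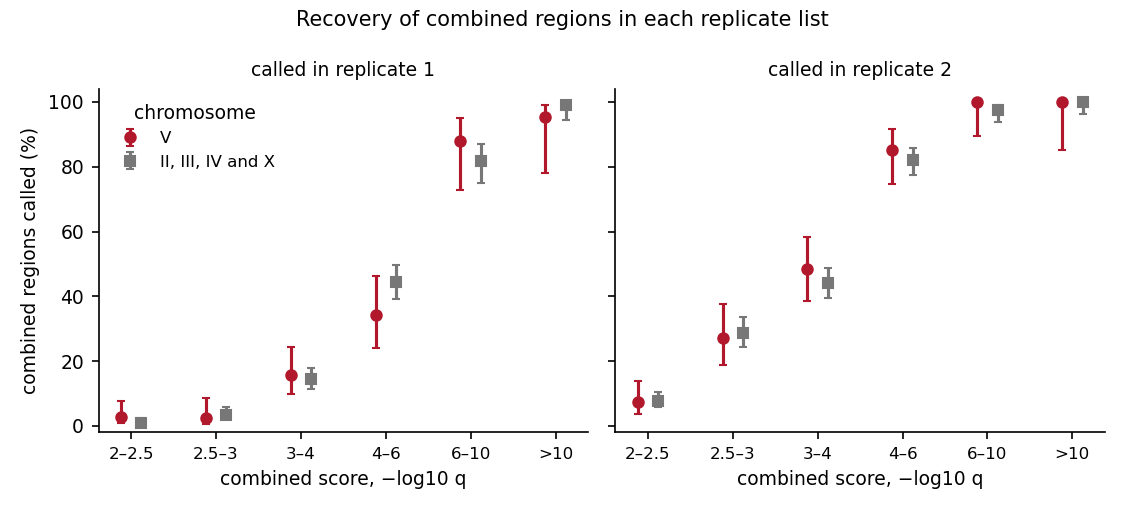
Share of combined regions called in replicate 1 (left) and replicate 2 (right), by band of combined score. Circles are regions on V, squares are regions on II, III, IV and X together, and bars are 95% Wilson intervals. In replicate 2 the share on V goes from 7.27% in the lowest band to 100% in the highest, and in replicate 1 from 2.73% to 95.5%.

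The highest-scoring regions that lacked support show how the lists differ. Among regions called in neither replicate, the strongest were V:14527295-14527790 with a combined score of 4.47, V:11078436-11078635 with 4.38 and V:4231747-4231961 with 4.35. The weakest were V:11148178-11148194, V:6882726-6882742 and V:4532551-4532596, with scores of 2.01, 2.002 and 2.002 and widths of 17, 17 and 46 bp. The region V:12024078-12024565 was the only one above a combined score of 10 without a replicate 1 call. It scored 10.3 in the combined list and 6.42 in replicate 2, and it lay next to V:12025321-12026128, which both replicates called.

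The replicate lists were also compared with each other on V. A match in replicate 2 was found for 73 of the 94 replicate 1 regions (77.7%, 68.2 to 84.9), against 75.7% over all chromosomes. The reverse held for 73 of the 192 replicate 2 regions (38.02%, 31.5 to 45.1), against 37.6% over all. The lists differ in length, and part of the overlap may come from the shared input, which was not tested. All 94 regions of replicate 1 and 189 of the 192 of replicate 2 (98.4%) overlapped a combined region. On II, III, IV and X together the shares were 98.7% and 96.9%, and the intervals of both differences included 0. Unmatched regions were weak, with a median score of 2.25 in replicate 1 and 2.34 in replicate 2, against 2.88 and 3.67 for matched ones.

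The strongest unmatched regions came from replicate 2. They were V:15071067-15071709 with a score of 7.16, V:12024082-12024467 with 6.42 and V:5200147-5200482 with 5.30. In replicate 1 the strongest were V:19177184-19177443 with 2.88, V:1157598-1157781 with 2.59 and V:12583480-12583742 with 2.55. Each of these 6 overlapped a combined region, with combined scores of 3.64 to 10.3. No replicate 1 region on V scoring above 2.88 lacked a replicate 2 match.

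Scores of the 73 matched pairs differed between the replicates by a median of 0.60 (replicate 2 minus replicate 1, 95% interval 0.065 to 1.13), and replicate 2 was higher in 48 of them. Across pairs, which are regions called against 1 shared input and not independent samples, Spearman's rho was 0.60. Pearson's r was 0.99 with all pairs and 0.85 without the 2 highest-scoring ones. The largest excess of replicate 2 was in the strongest stretch, where its 3 left pieces scored 15.8, 4.93 and 28.95 higher, from left to right. It was followed by V:5049346-5049811, with 6.35 against 2.41, and V:20782157-20782543, with 7.03 against 3.39.

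Regions with a higher score in replicate 1 differed less. The largest such difference was at V:6224347-6224954, with 4.96 in replicate 1 and 3.04 in replicate 2. It was followed by V:9194136-9194404 with 3.63 against 2.34, V:20739450-20739753 with 4.62 against 3.502, V:13812390-13812592 with 2.92 against 2.01 and V:17749212-17749544 with 6.33 against 5.45. The combined list held a region at each of these 5 places, with scores of 5.54 to 12.2.

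**Figure D4:**
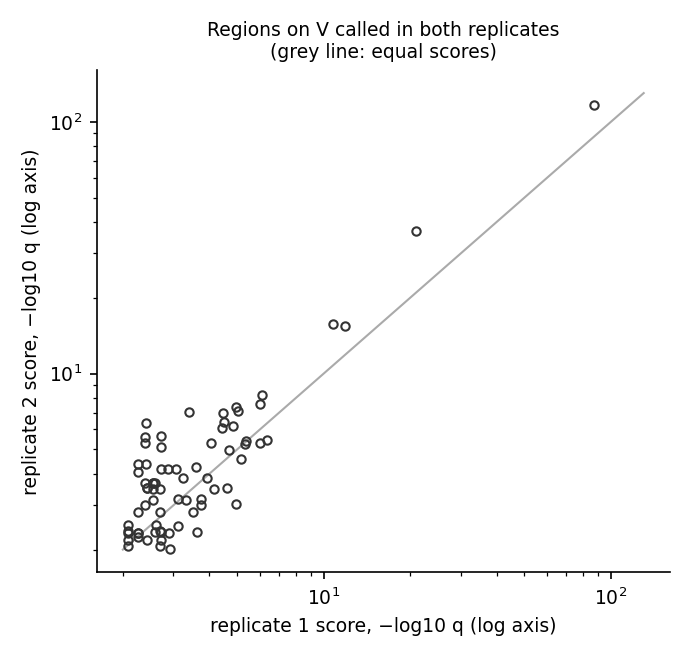
Scores of the 73 replicate 1 regions on V that overlap a replicate 2 region, in replicate 1 (x axis) and replicate 2 (y axis), both −log10(q) on log scales. Each circle is 1 pair and the grey line marks equal scores. The strongest pair, at 87.1 and 116, stands far from the rest, and 48 of the 73 pairs lie above the line.

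Chromosome V is the longest of the chromosomes compared, and its regions were the most thinly spread. The extent, taken from base 1 to the end of the last region of any list, was 20.9 Mb, which gave 19.5 combined regions per Mb against 29.8 on II, III, IV and X together. The ratio of V to these was 0.66 (95% exact interval 0.59 to 0.73). It was 0.61 in the replicate 1 list (0.49 to 0.77) and 0.65 in the replicate 2 list (0.55 to 0.76). Against single chromosomes in the combined list, the ratio was 0.84 to IV (0.73 to 0.96), 0.66 to II (0.58 to 0.76), 0.59 to III (0.51 to 0.67) and 0.58 to X (0.51 to 0.66). In replicate 1 the interval of the ratio to II, 0.57 to 1.03, included 1. Regions covered 0.511% of the extent of V and 0.733% of that of the others. Differences in how well short reads map to each chromosome were not measured.

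In all 3 lists the density along V was highest in the middle and lower to either side of it. From 10 to 14 Mb there were 141 combined regions, or 35.3 per Mb, with 9.25 per Mb in replicate 1 and 16.3 in replicate 2. The stretch from 2 to 4 Mb held 13 combined regions, or 6.5 per Mb, with 0.5 and 2 per Mb in replicates 1 and 2. The stretch from 15 to 19 Mb held 30, or 7.5 per Mb, with 2 and 5 in the replicates. Both sides were thus sparse in every list. The first 2 Mb held 34 combined regions, or 17 per Mb, with 4.5 and 8.5 in the replicates. The part beyond 19 Mb held 35, or 18.6 per Mb, with 4.79 and 6.38. In replicate 2 the values at the right rest on 12 regions beyond 19 Mb and 20 from 15 to 19 Mb, and the difference between them was not tested. These boundaries were chosen after the counts were seen. The 20 whole windows of 1 Mb held from 4 to 41 combined regions, 19.5 ± 11.1 (SD, n = 20 windows).

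**Figure D5:**
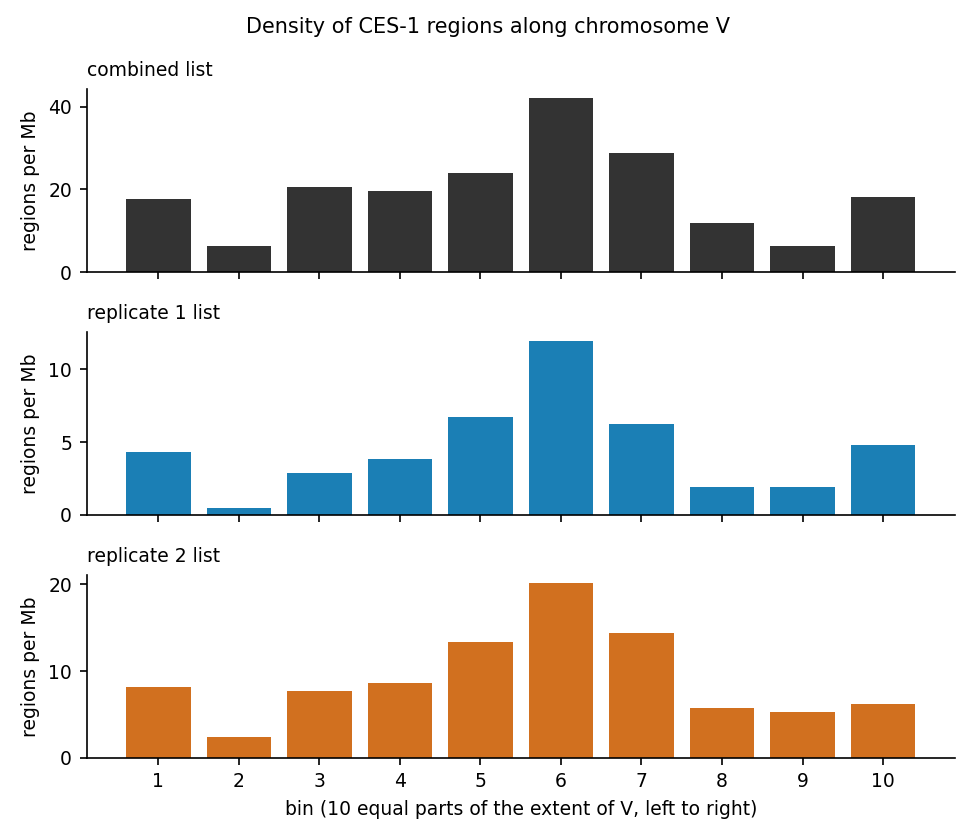
CES-1 regions per Mb in 10 equal parts of the extent of chromosome V, numbered from left to right, in the combined list and in each replicate list. Bars start at 0, and the y scales differ because the lists differ in length. The sixth part is the highest in all 3 lists, at 42.1, 11.97 and 20.1 regions per Mb, and the second is the lowest, shared in the combined list with the ninth at 6.23.

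The central 50% of the extent held 284 of the 408 regions (69.6%). Its share was 9.01 percentage points higher than on II, III and IV together, with a 95% Newcombe interval of 3.70 to 14.04. The difference was 12.4 points from III (5.94 to 18.6), 9.46 from IV (2.89 to 15.9) and 17.5 from X (11.4 to 23.4). The difference from II, 5.23 points, had an interval of −1.07 to 11.4. In replicate 2 the difference from II, III and IV together was 14.2 points (6.41 to 21.3), and in replicate 1 it was 9.02 points with an interval that included 0 (−2.23 to 19.1). The intervals are not adjusted for the number of comparisons.

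Widths, scores and support were also set side by side for central and outer regions of V, as a description. The median width was 224 bp in the central 50% and 219 bp outside it, and the median scores were 3.10 and 3.03. In replicate 1 the median widths were 250 and 223 bp and in replicate 2 they were 243 and 218 bp. The outer parts were not alike, with combined medians of 201.5 bp in the left 25% of the extent and 264.5 bp in the right. At least 1 replicate called 150 of the 284 central regions (52.8%, 47.01 to 58.5) and 59 of the 124 outer ones (47.6%, 38.996 to 56.3). These intervals overlapped, and the share over all combined regions was 47.7%. The central 50% held 16 of the 22 regions that scored above 10, beside 284 of all 408 regions (69.6%). The left 25% of the extent held 70 regions and the right 25% held 54.

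On a finer scale, regions were unevenly spread, which is described here for V alone, without other chromosomes beside it. The densest window of 100 kb, V:10800001-10900000, held 13 combined regions, of which 6 were called in a replicate. It was followed by V:6200001-6300000 and V:11400001-11500000 with 9 each, and a replicate called 5 and 4 of these. At least 1 replicate called 51.2% of all regions on V and 47.7% of all combined regions. Of 208 whole windows, 62 held none. The median gap between neighbouring regions was 18.8 kb, with quartiles of 3.58 and 66.0 kb.

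Another region's centre lay within 1000 bp for 42 regions on V (10.3%, 7.71 to 13.6), against 10.5% of all combined regions. The share differed from that on II, III, IV and X together by 0.163 percentage points (−2.80 to 3.73). It was 3.89 points higher than on X (0.447 to 7.63) and differed from that on II by −4.75 points (−9.18 to −0.269). The differences from III, −0.671 points (−4.79 to 3.52), and from IV, 1.14 points (−2.99 to 5.26), had intervals that included 0. These intervals are unadjusted for the number of comparisons. These 42 regions formed 21 pairs, none larger. In 4 of the pairs both regions were called in a replicate, in 13 one was, and in 4 neither. At least 1 replicate thus called 21 of the 42 paired regions (50%), against 51.4% of the other regions on V and 47.7% of all combined regions. In the shorter replicate lists such neighbours were fewer on all these chromosomes. Replicate 2 held 6 among its 192 regions on V (3.13%), against 4.66% on II, III, IV and X together, a difference of −1.53 points (−3.84 to 2.19). Replicate 1 held 0 among its 94, a count that allows a share of up to 3.19% (3 counts of 94) or, by the Wilson interval, 3.93%. The share on the other chromosomes in replicate 1 was 4.26%, a difference of −4.26 points (−6.48 to −0.058). Against single chromosomes in replicate 1, the difference from III was −9.35 points (−16.4 to −3.60). The intervals of the differences from II, IV and X included 0.

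Chains of at least 4 regions with gaps of at most 5 kb, a rule chosen after the positions were seen, numbered 9 on V and held 43 regions (10.5%). The same rule gave 14.8% of regions on II, 10.96% on III, 7.67% on IV and 7.59% on X, so V lay within the range of the other chromosomes. The largest, V:1150268-1158473, held 7 regions in 8206 bp. Both replicates called 3 of these 7, beside 17.6% of all regions on V and 16.3% of all combined regions. This chain contains the fourth- and seventh-ranked regions of the chromosome. The same chain holds V:1154925-1155390, with a combined score of 9.096, 2.39 in replicate 1 and 5.62 in replicate 2. The chain V:6221692-6233340 held 6 regions in 11649 bp and was led by V:6223980-6225162, a region of 1183 bp with a combined score of 11.5. In both chains the leading regions were called in both replicates and the weakest in neither or in 1. The chains V:10260916-10266394, V:19176183-19180673 and V:19519548-19529455 held no region called in both replicates, and each other chain held at least 1.

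Near the right end of V lay 4 regions that do not form a chain by this rule, since a gap of 6353 bp precedes the last. The 4 combined regions V:20776796-20777209, V:20778065-20778940, V:20782124-20782571 and V:20788925-20789380 scored 4.04, 12.98, 11.1 and 8.52. All 4 were called in both replicates, against 17.6% of all regions on V and 16.3% of all combined regions. Replicate 1 scored them 2.09, 4.47, 3.39 and 2.73, and replicate 2 scored them 2.37, 6.96, 7.03 and 5.13. Replicate 2 was thus higher at each.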

How the data were processed

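The authors deposited 3 region lists and a sample table. Per the file headers, regions were called with PeakSeq, which scores ChIP against input, and lifted over to WormBase WS220. None of the regions named in the liftover comments lies on V. The sources used here do not name the aligner, the caller's version or the earlier build. The deposited q-value of each region, a p-value adjusted by the authors' caller, was turned into −log10(q). The deposited read counts are per run of 36 bp reads and were summed per library over distinct runs. An overlap of 1 bp or more counted as a match, and a combined region took the highest replicate score that it overlapped. Replicate regions were paired by the most shared bases. Central means a region centre in the middle 50% of the extent. Shares have 95% Wilson intervals, differences Newcombe intervals, density ratios exact (Clopper-Pearson) intervals, and medians order-statistic intervals. No p-value was computed, since each list was called once. Scripts ran under Python 3.11.15 with numpy 2.4.6, pandas 2.3.3, scipy 1.17.1 and statsmodels 0.14.6 and were tested on simulated lists.

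Members are defined by chromosome only, but this choice, and all rules, were made with earlier results of these data known. Regions named are the 10 highest on V, the 3 strongest unmatched of each replicate, the 5 pairs that differ most in each direction, the 3 widest, the 3 densest 100 kb windows, and the 3 strongest and 3 weakest called in neither replicate. Other named regions were picked after their values were seen. No gene starts or E-box sequences were analysed here.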

Additional observations from a re-analysis of the deposited data

How the results depend on the processing

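Of 45 alternative settings, 22 stayed within the 95% interval of the value reported, among them all 7 tried for the density ratio of V, whose range was 0.61 to 0.69. The share of V regions called in at least 1 replicate was 80.2% at scores of at least 3, 83.0% in the part of the combined list above its median score and 44.9% with 50% reciprocal overlap. With 1 replicate left out it was 22.8% to 46.1%, lower by construction. The share called in both was 33.2%, 36% and 13.7% under the same 3 settings, in that order. At scores of at least 3 and in the part above the median score, the median width was 295 and 301.5 bp, the median score 4.18 and 4.31, and the share with a neighbour within 1000 bp 6.45% and 5%. That share was 0% within 500 bp, 26.2% within 2000 bp and 0% to 3.13% in the single replicate lists. The median width in those lists was 228.5 to 248 bp, and the cause of that shift was not tested. The central share was 58.6% for the central 40% and 75.2% for the central 60%, and 69.1% to 71.4% in the single replicate lists. With both lists on V cut to the same number of highest-scoring regions, 57.4% of each overlapped the other. For the overlap rule, the distance and the size of the central part, the direction of the shift follows from the rule. The same holds for the median score under a score cut. Other shifts under a score cut or in a shorter list, as in width, support and neighbour share, were not tested for a cause. No paired analysis was possible because every list was called against the merged input, which leaves no number per input library, and no test compared libraries. Alternatives for E-box sequences and gene starts were not run. With 873921 uniquely mapped reads in replicate 1, weak regions missed there cannot be told from unbound ones.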

Other observations

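Long parts of chromosome V held no combined region. The longest gap, V:2672969-3307317, ran for 634 kb and held no region of either replicate list. The next, V:17858354-18430821, ran for 572 kb and held 1 region of replicate 2. The third, V:15874104-16350993, ran for 477 kb and held none. All 3 lie outside the central 50% of the extent. How much of each gap can be mapped with 36 bp reads was not measured.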
